A study of Homo sapiens with 6 samples.

Results

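IL32 and 9 further cytokine genes were followed in cultured prostate cancer cells after knockdown of the histone methyltransferase gene NSD2. The members were given as a list of gene symbols, drawn up with earlier results of these data known: IL32, CXCL16, CCL28, CCL2, CXCL8, CSF1, LIF, IL15, IL18 and TNFSF10. Of these 10 genes, 9 had a row among the 31413 genes of the count table, and CCL28 had none, so its transcript was not analysed here. A missing row says nothing of a gene's level, since it is not known which rows were left out of the table, and MIF, a cytokine gene of most cell types, had none either. Of the 9, 5 passed a filter on low counts and were tested in 1 fit with all other such genes, 17160 in all. The 4 below the filter were CCL2, CXCL8, IL15 and IL18.

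The study asked, by its title, how NSD2 (also called WHSC1) bears on immune infiltration in prostate cancer. Both groups were the C42 line, usually written C4-2, a human prostate cancer line of the LNCaP lineage, grown in RPMI medium with serum. The 3 shNSD2 libraries, numbered 1, 2 and 3, came from cells with an shRNA against NSD2, and the 3 shCTR libraries, numbered 1, 2 and 4, from cells with a control shRNA. No source used here says how many hairpins were used, how long after knockdown RNA was taken, or if a library stands for its own culture, so p-values reflect spread among these 6 libraries alone, and that spread may be technical. The labels name no cell type besides this line.

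Cytokines are small secreted or membrane-bound proteins through which cells signal to each other, and chemokines are the cytokines that guide migrating leukocytes. IL32 is a cytokine of primates and some other mammals, first known from activated T and NK cells and also made by epithelial cells, that drives production of other inflammatory mediators. Tumour cells can attract or instruct macrophages through CCL2 and CSF1, neutrophils through CXCL8, and T or NK cells through CXCL16, IL15 and IL18.

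Total counts ran from 19412896 to 20665494 per library. Levels are given as raw counts or as CPM, the count scaled to a common depth by the library's total and TMM factor, on which a floor of 3 counts stood at 0.144 to 0.156 CPM (counting error only). NSD2 transcript was 85.1, 86.2 and 89.5 CPM in the shNSD2 libraries, against 219, 222 and 200 CPM in the shCTR libraries. The log2 fold change was -1.30, with an SE of 0.0870 and an adjusted p of 8.03e-05 by the quasi-likelihood test of edgeR. An exact permutation of the 6 values, two-sided, gave p = 0.1, the smallest that 3 against 3 allow. All 10 luminal prostate markers examined, among them KLK3, passed the low-count filter. At an edgeR adjusted p under 0.05, 2 of them were higher and 2 lower (15.5% and 15.2% of all tested genes). Their summed level was 11310 to 11690 CPM in shNSD2 and 12000 to 13550 CPM in shCTR libraries, ranges that did not overlap. The defining leukocyte genes PTPRC, CD3D and CD3E had no row, so their levels are not known.

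IL32 transcript was far more abundant after NSD2 knockdown. It was read 47, 72 and 64 times in the shNSD2 libraries, against 8, 10 and 17 times in the shCTR libraries. Every shNSD2 library was above every shCTR library, and shCTR 4 was the highest of the controls. IL32 averaged 3.06 ± 0.650 CPM in shNSD2 and 0.585 ± 0.263 CPM in shCTR cells (SD, n = 3 each), a 5.23-fold rise (log2 fold change 2.39, SE 0.307, 95% interval 1.71 to 3.07, edgeR adjusted p = 0.00106). Among the 5 tested cytokines 1 was called higher, IL32, and 0 were called lower, where 15.5% of all tested genes were called higher, 15.2% lower and 30.7% in either direction. At an unadjusted p under 0.05, 1 cytokine (CSF1) was lower by edgeR, by DESeq2 and by limma-voom. Besides IL32, CXCL16 was higher at that threshold by each of these tools. Of all 17160 tested genes, edgeR had 3819 higher and 3693 lower at the same unadjusted threshold. None of them called CSF1 or CXCL16 after adjustment.

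The rise of IL32 came from a low starting level. IL32 passed the filter only through its shNSD2 libraries, since shCTR 1 and 2 held 0.390 and 0.481 CPM. By size of log2 fold change it stood in place 18 among the 2658 genes called higher, and in place 6 among the 2514 of these with a mean of at least 1 CPM. In log2 CPM, shCTR 4 stood 34.7% of the way from the mean of shCTR 1 and 2 to the mean of the shNSD2 libraries. IL32 was called with each library left out in turn, with log2 fold changes between 2.16 without shCTR 1 and 2.79 without shCTR 4.

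**Figure D1:**
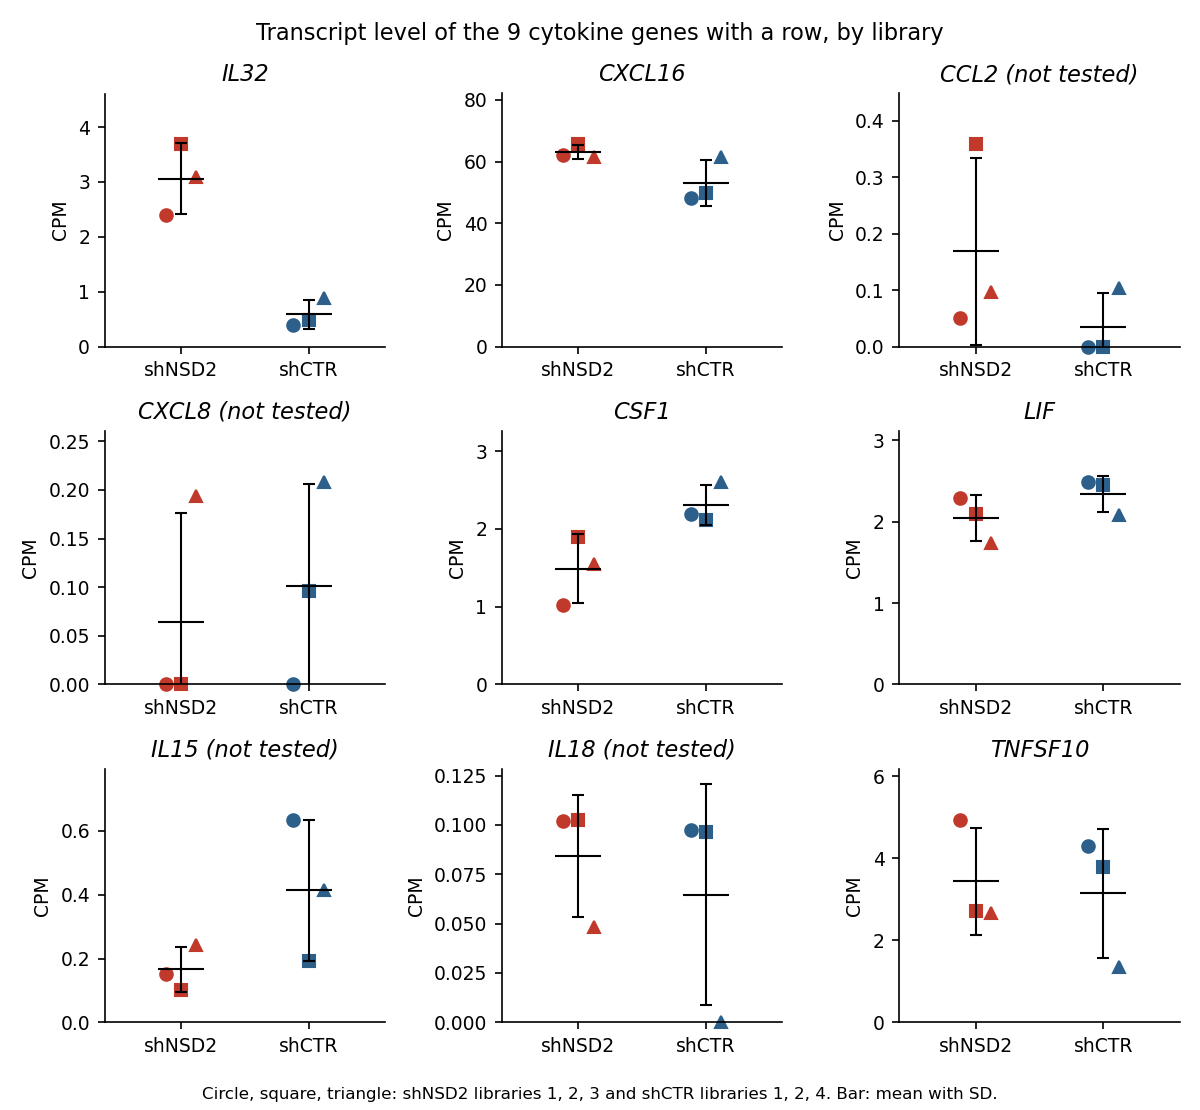
CPM of the 9 cytokine genes with a row, in the 3 shNSD2 libraries (left in each panel) and the 3 shCTR libraries (right), each axis starting at 0, with bars for the mean and SD. IL32 separates the groups, with 2.39 to 3.69 CPM in shNSD2 against 0.390 to 0.885 CPM in shCTR libraries, while CCL2, CXCL8 and IL18 hold a handful of reads in any library.

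IL32 (ENSG00000008517) lies on the plus strand of chromosome 16 of GRCh38, from 3065297 to 3082192. A small nuclear RNA pseudogene on the same strand, RNU1-125P, shares 129 of its 3209 merged exon bases, and a long noncoding RNA gene on the opposite strand overlaps it without sharing exon bases. The counts are per gene, so the many splice forms of IL32 were not separated.

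Many cytokine genes are induced through NF-kB, a transcription factor that binds GG-rich sites, so RefSeq promoter windows (GRCh38.p14) were searched for short motifs on both strands. Windows were found for 4 of the 10 genes (IL32 and CCL28 with 2 each, CXCL8 and TNFSF10). The 250 bases before the annotated start of IL32 at position 3065403 (chr16:3065153-3065402, plus strand) and of CXCL8 at position 73740569 (chr4:73740319-73740568, plus strand) are shown because both hold the kappaB-like pattern GGNNNTTCC, while IL32 rose and CXCL8 stayed near the count floor. Capitals mark matches to GGNNNTTCC and, in CXCL8, to the AP-1 pattern TGANTCA.

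IL32: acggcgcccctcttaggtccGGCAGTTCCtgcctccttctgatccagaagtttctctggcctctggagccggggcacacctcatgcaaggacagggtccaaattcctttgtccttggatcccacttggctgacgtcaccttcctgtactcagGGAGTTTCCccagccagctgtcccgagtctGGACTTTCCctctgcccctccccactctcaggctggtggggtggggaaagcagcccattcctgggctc

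CXCL8: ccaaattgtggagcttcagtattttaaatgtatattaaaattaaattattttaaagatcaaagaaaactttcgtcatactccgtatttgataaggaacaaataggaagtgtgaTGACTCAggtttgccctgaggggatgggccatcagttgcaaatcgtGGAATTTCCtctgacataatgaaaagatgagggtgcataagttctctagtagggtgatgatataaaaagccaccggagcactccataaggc

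The IL32 window held 3 kappaB-like matches, GGCAGTTCC, GGAGTTTCC and GGACTTTCC, whose first bases lie 230, 98 and 68 bases before the annotated start. GENCODE 29 starts the gene upstream of that point, at 3065297, so the nearer pair falls within its longest transcribed span. Of 35116 windows of this length, 17.1% held at least 1 such match and 0.242% held 3 or more. The cut of 3 was taken from the IL32 window itself, so the 0.242% describes that window and tests nothing. The CXCL8 window held 1 kappaB-like match, GGAATTTCC, which reads on both strands, and 1 AP-1 match, TGACTCA, a pattern in 6.57% of windows. The TNFSF10 window held 2 matches to the interferon response pattern TTCNNTTTC, which 6.88% of windows held. None of the marked matches overlapped another motif. The second IL32 window, both CCL28 windows and the STAT pattern TTCNNNGAA gave no match. These are matches of letters, and binding was not measured.

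The genes whose pattern over the 6 libraries lay nearest to that of IL32 were picked by the root mean square difference of their centred log2 CPM from that of IL32, out of 14882 genes averaging 1 CPM or more. The nearest was the noncoding RNA gene LINC01029 (0.230 log2 units), with 6.74 ± 0.255 CPM in shNSD2 and 1.72 ± 0.631 CPM in shCTR libraries. Next came DUX4L26 (0.283), a pseudogene of a multicopy family whose reads may be shared among copies, and ZSCAN18 (0.318), which encodes a zinc finger protein. S100P (0.327), a calcium-binding protein gene, was the last of the 4 described here. For each of these 4 genes, as for IL32, shCTR 4 held the highest control value. The genes were picked on all 6 libraries, shCTR 4 included, so this likeness follows from the choice and is no separate result.

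**Figure D2:**
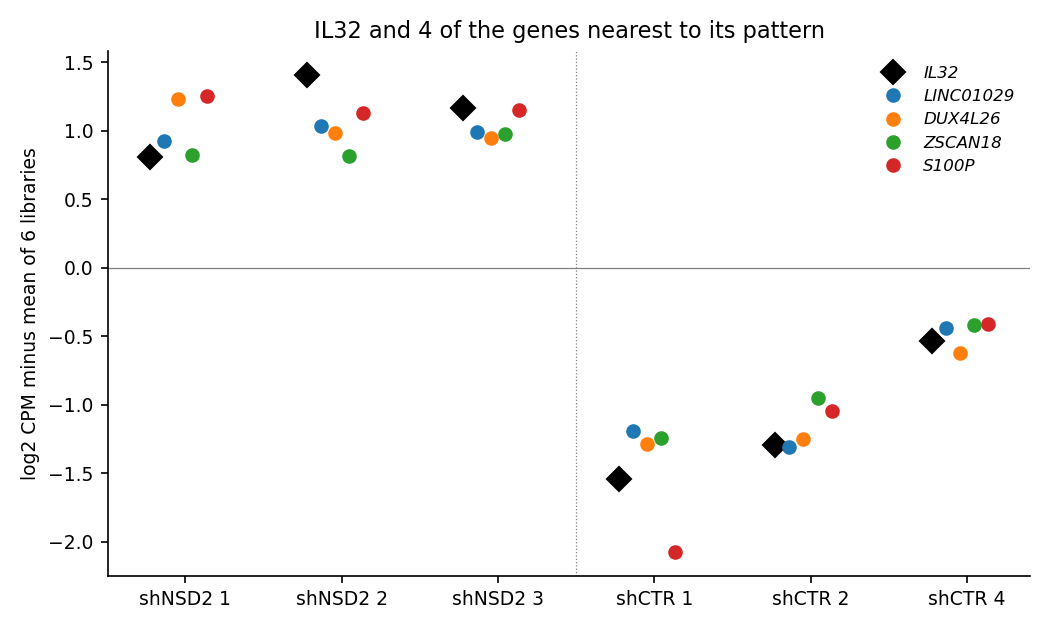
Log2 CPM of IL32 (diamonds) and of 4 of the 5 genes with the smallest root mean square difference from it (circles), each centred on its mean over the 6 libraries, with shNSD2 libraries left of the dotted line and shCTR libraries right of it. IL32 runs from 0.80 to 1.41 in shNSD2 libraries and from -1.54 to -0.54 in shCTR libraries. In shCTR 4 the 5 genes shown lie between -0.62 and -0.42, a closeness that follows from how they were picked.

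CXCL16, a chemokine made as a membrane protein that is cut to release a soluble ligand of CXCR6, had the highest level of the set. Per kb of merged exon it reached 22.6 ± 0.811 CPM in shNSD2 and 19.01 ± 2.65 CPM in shCTR cells (SD, n = 3 each). Its values were 62.3, 65.7 and 61.4 CPM in the shNSD2 libraries, against 48.1, 49.6 and 61.6 CPM in the shCTR libraries. The groups overlapped through shCTR 4, which sat with the knockdown libraries, 90.8% of the way from the other controls to the shNSD2 mean. The log2 fold change of 0.25 (SE 0.104, 95% interval 0.02 to 0.48) was not called (edgeR adjusted p = 0.0893). Without shCTR 4 it was 0.37 with an adjusted p = 0.00134, whereas the adjusted p was 0.158 to 0.266 with any other library left out. CXCL16 lies on the minus strand of chromosome 17 (4733526 to 4739922) and shares 85 exon bases with MED11 on the opposite strand, from which reads cannot be told apart without a stated strand setting.

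CCL2, which draws monocytes through CCR2, was all but absent, with 1, 7 and 2 counts in the shNSD2 libraries against 0, 0 and 2 in the shCTR libraries. The neutrophil chemokine gene CXCL8 had 0, 0 and 4 counts in shNSD2 against 0, 2 and 4 in shCTR libraries. In both genes the groups overlapped. In a fit without the low-count filter, the edgeR adjusted p was 0.232 for CCL2 and 0.815 for CXCL8.

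CSF1 encodes the growth factor that keeps macrophages alive through its receptor CSF1R. It had 20, 37 and 32 counts in the shNSD2 libraries, against 45, 44 and 50 counts in the shCTR libraries. The groups did not overlap, and shNSD2 1 was the lowest. CSF1 averaged 1.49 ± 0.442 CPM in shNSD2 and 2.30 ± 0.260 CPM in shCTR cells (SD, n = 3 each). The log2 fold change of -0.63 (95% interval -1.17 to -0.08) missed the threshold (edgeR adjusted p = 0.0745). Leaving out a library gave values of -0.83 to -0.42, with no call in any of the 6 fits.

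LIF, a cytokine of the IL-6 family, had 45, 41 and 36 counts in shNSD2 and 51, 51 and 40 counts in shCTR libraries, which overlapped. Its log2 fold change was -0.20, with a 95% interval of -0.64 to 0.24 (edgeR adjusted p = 0.465). LIF shares 92 exon bases with the antisense gene LIF-AS1 and 175 with another antisense gene, AC004264.1.

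IL15, which sustains NK and memory T cells, was sparse, with 3, 2 and 5 counts in shNSD2 libraries against 13, 4 and 8 counts in shCTR libraries. The groups overlapped, since shNSD2 3 exceeded shCTR 2. Without the low-count filter its log2 fold change was -1.28 (edgeR adjusted p = 0.156). IL18, a cytokine of the IL-1 family that needs cleavage by an inflammatory caspase, had 2, 2 and 1 counts in shNSD2 and 2, 2 and 0 counts in shCTR libraries. IL18 was the gene of the 9 that never exceeded the floor of 3 counts.

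TNFSF10 encodes TRAIL, a ligand that triggers apoptosis through the death receptors TNFRSF10A and TNFRSF10B. It varied more within groups than between them, with 97, 53 and 55 counts in shNSD2 libraries against 88, 79 and 26 counts in shCTR libraries. shNSD2 1 was highest and shCTR 4 lowest. Its log2 fold change was 0.12 with a 95% interval of -0.70 to 0.93 (edgeR adjusted p = 0.832), and the sign turned without shNSD2 1 (-0.23) and without shCTR 4 (-0.24).

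**Figure D3:**
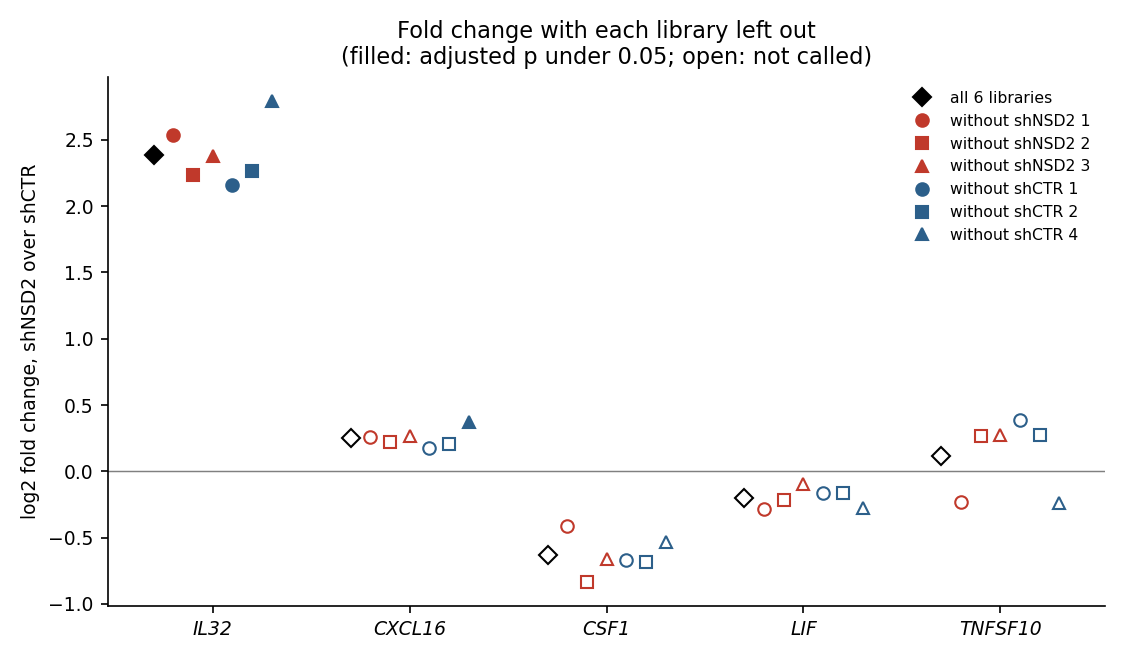
Log2 fold change of shNSD2 over shCTR for the 5 tested cytokine genes with all 6 libraries (black diamond) and with each library left out (red, shNSD2 library left out; blue, shCTR library left out), filled where the adjusted p is under 0.05. IL32 stays between 2.16 and 2.79 and is filled throughout, CXCL16 is filled only without shCTR 4 (0.37), and TNFSF10 lies on both sides of 0.

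By CPM per kb of merged exon, IL32 stood in place 3 of the 9 genes in shNSD2 cells and in place 5 in shCTR cells. Merged exons join all annotated splice forms (3209 bases for IL32, 7860 for IL15) and may be longer than the transcripts made. The order between genes is therefore approximate. In shNSD2 cells CXCL16 led, followed by TNFSF10 (0.990 ± 0.374), IL32 (0.954 ± 0.203), LIF (0.515 ± 0.0702) and CSF1 (0.275 ± 0.0816), then CCL2, IL18, CXCL8 and IL15 at 0.0211 to 0.0850 CPM per kb (SD, n = 3). In shCTR cells the order was CXCL16, TNFSF10 (0.907 ± 0.454), LIF (0.590 ± 0.0568), CSF1 (0.425 ± 0.0480) and IL32 (0.182 ± 0.0820), then IL15, CXCL8, IL18 and CCL2 at 0.0175 to 0.0527 CPM per kb. Library ranges overlapped between TNFSF10 and IL32 in shNSD2 cells, between TNFSF10 and LIF in shCTR cells, and between neighbours among the last 4 genes in both groups. The other neighbours did not overlap.

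Receptor genes for these ligands moved in both directions. Of 16 listed, 15 were in the table and 10 passed the low-count filter, of which 2 rose and 5 fell (30.7% of all tested genes were called), with a median log2 fold change of -0.52 against 0.01 over all tested genes. Both that rose bind IL15. IL2RB, the beta chain that IL15 shares with IL2, had 60, 39 and 33 counts in the shNSD2 libraries against 11, 8 and 26 counts in the shCTR libraries, where shCTR 4 lay nearest to the knockdown. Its fold change was 2.94 (log2 fold change 1.56, SE 0.410, edgeR adjusted p = 0.0180). Without shCTR 4 the fold change was 4.75, and IL2RB was not called without shNSD2 1, shCTR 1 or shCTR 2 (edgeR adjusted p = 0.0731, 0.0531 and 0.0739). IL15RA, the alpha chain that presents IL15 to neighbouring cells, averaged 7.17 ± 1.13 CPM in shNSD2 and 4.46 ± 0.836 CPM in shCTR cells (SD, n = 3 each; edgeR adjusted p = 0.0177). The third chain gene, IL2RG, was below the filter with 10, 7 and 7 counts in shNSD2 and 4, 1 and 3 counts in shCTR libraries.

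IL6ST, which encodes gp130, the signalling chain for LIF and IL6, fell. It had 48.4, 47.0 and 42.4 CPM in shNSD2 libraries against 90.9, 76.1 and 62.6 CPM in shCTR libraries (log2 fold change -0.74, SE 0.127, edgeR adjusted p = 0.00338). Its partner LIFR had 61.5, 68.5 and 60.5 CPM in shNSD2 against 125, 107 and 60.6 CPM in shCTR libraries. The fall of LIFR (log2 fold change -0.62, edgeR adjusted p = 0.0428) rested on shCTR 1 and 2, since shCTR 4 was at the knockdown level. The death receptor gene TNFRSF10A fell by 0.42 on the log2 scale (51.0 ± 3.08 CPM in shNSD2 and 68.2 ± 12.1 CPM in shCTR, SD, n = 3; edgeR adjusted p = 0.0254). TNFRSF10B, the other death receptor gene, was not called, at 350 ± 9.92 CPM in shNSD2 and 358 ± 45.4 CPM in shCTR cells (SD, n = 3; 95% interval of the log2 fold change -0.28 to 0.21).

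CXCR6, the receptor gene of CXCL16, fell to 0.715 ± 0.205 CPM in shNSD2 cells, against 1.55 ± 0.437 CPM in shCTR cells (SD, n = 3; log2 fold change -1.11, edgeR adjusted p = 0.0225). IL18R1, a chain of the IL18 receptor, fell to 0.757 ± 0.284 CPM in shNSD2 cells, against 1.53 ± 0.160 CPM in shCTR cells (log2 fold change -1.02, edgeR adjusted p = 0.0241). CSF1R was not called (log2 fold change -0.65, edgeR adjusted p = 0.0605). It was called lower in 2 of 16 alternatives, the filter on 1 CPM and the offset for GC content and gene length. The number of receptor genes called lower was 1 without shNSD2 1, shCTR 1 or shCTR 2, and 2 without shNSD2 2 or shNSD2 3. The number called higher was 0 by edgeR without shNSD2 1 or shCTR 1, where 2 had an unadjusted p under 0.05, and 1 without shNSD2 3 or shCTR 2. IL6ST was called in all 16 alternatives, and LIFR in 8 of them. With a library left out, the highest edgeR adjusted p was 0.0695 for IL15RA, 0.0819 for CXCR6, 0.0959 for TNFRSF10A and 0.104 for IL18R1.

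**Figure D4:**
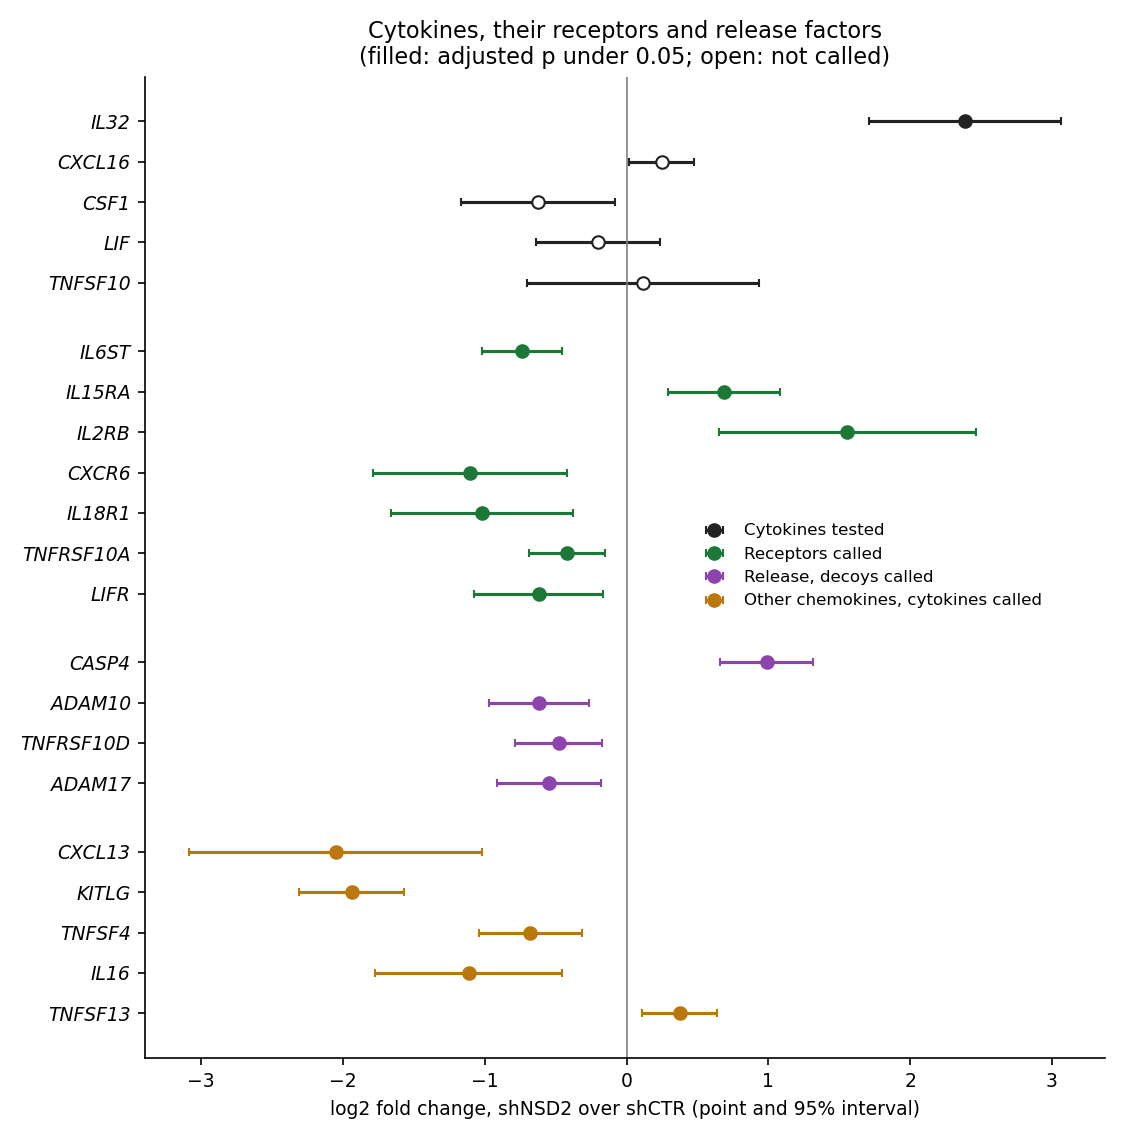
Log2 fold change of shNSD2 over shCTR with its 95% interval for the 5 tested cytokine genes (black), the called receptor genes (green), the called genes of release and decoy function (purple) and the called other chemokine and cytokine genes (brown), filled where the adjusted p is under 0.05. IL32 (2.39) and IL2RB (1.56) lie farthest to the right, and CXCL13 (-2.05) and KITLG (-1.94) farthest to the left.

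Among 16 listed genes that release, mature or neutralise these cytokines, 11 were in the table and 8 passed the filter, of which 1 rose and 3 fell (15.5% and 15.2% of all tested genes). CASP4, an inflammatory caspase gene, rose 1.98-fold, with 17.6 ± 1.22 CPM in shNSD2 and 8.89 ± 1.90 CPM in shCTR cells (SD, n = 3; edgeR adjusted p = 0.00195), and was called in all 16 alternatives. The metalloproteases that cut CXCL16 from the membrane were lower, with log2 fold changes of -0.61 for ADAM10 and -0.55 for ADAM17 (edgeR adjusted p = 0.0173 and 0.0309), and the ADAM17 groups overlapped. ADAM10 had 215, 192 and 174 CPM in shNSD2 libraries against 362, 307 and 222 CPM in shCTR libraries. The TRAIL decoy receptor gene TNFRSF10D fell by 0.48 (edgeR adjusted p = 0.0251). The count of lower genes was 1 without shNSD2 1 or shCTR 1 and after an offset for GC content and gene length. It was 0 by edgeR without shNSD2 2, shNSD2 3 or shCTR 2, where 3 had an unadjusted p under 0.05. CASP1 and PRTN3, a protease that binds IL32 protein, had no row, and the inflammasome adaptor gene PYCARD had at most 7 counts.

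Downstream of TRAIL, 12 of 12 listed genes were tested, of which 1 rose and 1 fell, so that 2 of 12 were called where 30.7% of all tested genes were. BID, which carries the death receptor signal to mitochondria, averaged 19.7 ± 1.37 CPM in shNSD2 and 11.8 ± 1.85 CPM in shCTR cells (SD, n = 3 each; edgeR adjusted p = 0.00319). CFLAR, the inhibitor of caspase-8 also known as c-FLIP, fell to 47.3 ± 1.46 CPM in shNSD2 cells, against 70.9 ± 9.01 CPM in shCTR cells (edgeR adjusted p = 0.00351). Both were called in all 16 alternatives, and 2 genes of the list were higher without shCTR 4 and after the offset for GC content and gene length. That offset moved the log2 fold change of CFLAR from -0.58 to -0.25 and that of BID from 0.74 to 0.76.

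Of 9 listed genes of LIF and gp130 signalling, 8 were tested, with 3 higher and 1 lower (15.5% and 15.2% of all tested genes). PIAS3, an inhibitor of STAT3, the feedback inhibitor gene CISH and the IkB family gene BCL3 rose, with log2 fold changes of 0.39, 0.60 and 0.41 (edgeR adjusted p = 0.00912, 0.0279 and 0.0269). JAK1, a kinase bound to gp130, fell by 0.42 (edgeR adjusted p = 0.0381). After an offset for GC content and gene length neither BCL3 nor JAK1 was called (edgeR adjusted p = 0.346 and 0.0765). STAT3 itself was not called, at 229 ± 14.7 CPM in shNSD2 and 217 ± 8.35 CPM in shCTR cells (SD, n = 3 each). SOCS3, a standard target of this pathway, was below the filter with at most 5 counts. The list had 1 higher gene without shNSD2 1, shNSD2 3, shCTR 1 or shCTR 2. Lower genes numbered 2 without shCTR 4. With any other library left out, and after the offset for GC content and gene length, edgeR called 0 lower, where 1 had an unadjusted p under 0.05.

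In the NF-kB pathway, 6 of 15 tested core genes were higher and 1 was lower (15.5% and 15.2% of all tested genes). NFKB2 had 81.7 ± 4.31 CPM in shNSD2 and 51.6 ± 6.42 CPM in shCTR cells (SD, n = 3; edgeR adjusted p = 0.00204). RELB, which encodes its partner in the noncanonical branch, had 2.52 ± 0.595 CPM in shNSD2 and 1.26 ± 0.0743 CPM in shCTR cells (edgeR adjusted p = 0.0120). BIRC3, a ubiquitin ligase gene of the pathway, had 4.71 ± 0.326 CPM in shNSD2 and 2.19 ± 0.423 CPM in shCTR cells (edgeR adjusted p = 0.00308). The inhibitor gene NFKBIB had 31.2 ± 2.08 CPM in shNSD2 and 23.7 ± 4.11 CPM in shCTR cells (edgeR adjusted p = 0.0374), and was not called after the offset for GC content and gene length (edgeR adjusted p = 0.201). RELA and NFKBIE (higher) and NFKB1 (lower) lay just under the threshold (edgeR adjusted p = 0.0491, 0.0488 and 0.0480). After the same offset none of these was called. Higher genes numbered 3 without shNSD2 1, shNSD2 2, shCTR 1 or shCTR 2 and 2 without shNSD2 3. Lower genes numbered 4 without shCTR 4, where 4011 of all genes were called lower, against 2605 with all libraries. Without any other library, lower genes numbered 0 by edgeR, where 1 or 2 had an unadjusted p under 0.05.

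Of 33 other chemokine genes listed, 22 had no row and so no level, 9 were below the filter and 2 were tested. CXCL13, the B cell chemokine gene, fell 4.15-fold, with 3, 14 and 21 counts in shNSD2 libraries against 77, 32 and 51 in shCTR libraries (edgeR adjusted p = 0.0101). CXCL12, the ligand of CXCR4, was not called (log2 fold change -0.61, edgeR adjusted p = 0.110), but was called lower without shCTR 4, which made 2 lower genes.

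Of 50 other cytokine genes listed, 36 were in the table and 12 passed the filter, of which 1 rose and 3 fell, so that 4 of 12 were called where 30.7% of all tested genes were. KITLG, which encodes stem cell factor, the ligand of KIT, had 1.99, 2.82 and 2.61 CPM in shNSD2 libraries against 10.5, 8.56 and 9.47 CPM in shCTR libraries, with no overlap. It fell 3.84-fold (log2 fold change -1.94, SE 0.167, edgeR adjusted p = 1.99e-04) and was called in all 16 alternatives. TNFSF4, the ligand of the T cell receptor OX40, and IL16, a chemoattractant of CD4+ cells, fell, with log2 fold changes of -0.68 and -1.11 (edgeR adjusted p = 0.0134 and 0.0193). IL16 was not called by DESeq2 (adjusted p = 0.0563) or by edgeR without shNSD2 1, shNSD2 2, shCTR 1 or shCTR 2. TNFSF4 was not called without shNSD2 2 or with the replicate number as a block. TNFSF13, which encodes the B cell factor APRIL and shares a read-through transcript with TNFSF12, rose, with a log2 fold change of 0.37 (edgeR adjusted p = 0.0379), and was not called after the offset for GC content and gene length (edgeR adjusted p = 0.160). Without shNSD2 2, 1 gene of this list was lower. Without any library except shCTR 4, 0 were higher by edgeR, where 1 to 3 had an unadjusted p under 0.05. TNF was at the floor, with at most 2 counts in a library.

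IL32 is also a product of T and NK cells, so leukocyte markers are given beside it. Of 18 listed, 12 had a row and 5 were tested. LCP1, an actin-bundling protein gene, was called higher, with 158, 165 and 159 CPM in shNSD2 against 127, 130 and 129 CPM in shCTR libraries (edgeR adjusted p = 0.0150). The summed level of the other leukocyte markers was 6.66 to 9.11 CPM in shNSD2 and 6.25 to 8.10 CPM in shCTR libraries, ranges that overlapped. With LCP1 included the sum was 167.2 to 171.4 CPM in shNSD2 and 134.6 to 136.6 CPM in shCTR libraries, without overlap. NKG7, a cytotoxic granule gene, had 15, 14 and 21 counts in shNSD2 against 29, 12 and 17 in shCTR libraries. Of 9 fibroblast and endothelial markers, 6 had a row and 2 were tested. VWF was called higher (log2 fold change 0.43, edgeR adjusted p = 0.0273), where 15.5% of all tested genes were. Their summed level was 9.29 to 10.8 CPM in shNSD2 and 7.49 to 8.10 CPM in shCTR libraries, ranges that did not overlap. COL1A2, DCN and CDH5 had no row. The part of such markers in the cytokine values was not tested. In bulk RNA, more cells making a transcript and more transcript per cell cannot be told apart.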

How the data were processed

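mRNA libraries were sequenced from 3 shNSD2 and 3 shCTR libraries of C42 cells. The deposited table holds raw read counts per gene by Ensembl identifier and symbol, judged from whole numbers with unequal library totals. CASAVA 1.8.2, STAR 2.6.0a and GRCh38 are named, per the submitters' processing notes. For the counting program, its annotation and its strand setting: not given in the sources used here. Sample titles gave groups and replicate numbers.

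The test on the deposited counts was that of edgeR 4.0.16 under R 4.3.3 (filterByExpr by group, TMM, glmQLFit and glmQLFTest, no covariate). Of 31413 genes, 17160 were tested, p-values were adjusted by Benjamini-Hochberg over all of them. The filter removed the other 14253. Here an adjusted p under 0.05 was called. Each SE is the absolute log2 fold change over the square root of F. CPM use the total count times the TMM factor. Loci and merged exon lengths came from GENCODE 29 (31313 identifiers found, 100 not), promoters from RefSeq. Alternatives were other scalings, filters and tests (DESeq2 1.42.0, limma-voom with limma 3.58.1), the replicate number as a block, an offset for GC content and gene length (mgcv 1.9.3), and each library left out. The fit was checked on simulated counts.

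The 10 cytokines and all lists were chosen with earlier results of these data known. Named were NSD2, the 10 cytokines, every called gene of the receptor and the release and decoy lists, the 4 called genes of smallest p of each other list, and the 5 genes nearest to IL32, of which 1 is not reported here. TNFRSF10B, CSF1R, IL2RG, STAT3, SOCS3, CXCL12, TNF, PYCARD, LCP1, NKG7, VWF, KLK3, RELA, NFKBIE, NFKB1 and the genes named for having no row were named after their values were seen.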

Additional observations from a re-analysis of the deposited data

How the results depend on the processing

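IL32 was called higher in all 16 alternatives, with log2 fold changes of 2.16 to 2.79 and adjusted p-values of 2.33e-08 (DESeq2) to 0.00834 (edgeR without shCTR 2). The number of cytokines called higher was 2, with CXCL16 added, without shCTR 4, so it ranged from 1 to 2 over the fits with a library left out. With the replicate block it was also 2, with a log2 fold change of 0.39 for CXCL16. The groups share 2 replicate numbers, same-numbered libraries did not deviate together (r = -0.05 and -0.065 over 17160 genes), and with the block shNSD2 3 and shCTR 4 no longer add to the comparison. TNFSF10 turned sign with the block (-0.11), without shNSD2 1 (-0.23) and without shCTR 4 (-0.24). LIF and CSF1 were not called in any of the 16.

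The number of genes called was 2436 to 8262 with a library left out (1116 to 4251 higher, 1320 to 4011 lower), the highest of each without shCTR 4, against 5263 in all. The other alternatives gave 4891 to 6243. The offset for GC content and gene length lowered the log2 fold change of CXCL16 to 0.13. Among NSD2 and the listed genes, the 10 cytokines and the cell markers aside, it ended 10 of 30 calls. These were ADAM10, ADAM17, LIFR, JAK1 and NFKB1 (lower) and BCL3, NFKBIB, NFKBIE, RELA and TNFSF13 (higher). The replicate block ended 5, those of IL18R1, TNFSF4, BCL3, NFKB1 and NFKBIE, and moved the log2 fold change of IL2RB to 2.44. The DESeq2 test also ended 5 of the 30. Leaving out a library other than shCTR 4 ended more. It ended 17 without shNSD2 1, shCTR 1 or shCTR 2, 16 without shNSD2 3 and 14 without shNSD2 2. Counts of 3 or fewer, as for IL18, allow no statement on change.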
